A study of Mus musculus and Rattus norvegicus with 28 samples.

Results

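Collagen chain genes are the genes that encode the alpha chains of the collagen triple helix. They were taken as every gene whose symbol in the transcript files has the form Col, a type number, a and a chain number, and 44 of 55450 mouse genes and 42 of 32623 rat genes met that rule. In mouse, 11 encode fibrillar chains, 6 encode the type IV chains of basement membranes and 27 encode other types. In rat the numbers were 10, 6 and 26, because no rat entry carried the symbols Col1a2 or Col6a3, which were not analysed there. The mouse samples were ventricular cardiomyocyte preparations from wild-type C57BL/6 mice of both sexes at embryonic day 18.5 (E18.5) and at postnatal days 1, 3 and 7 (P1, P3 and P7), with 2 RNA-seq and 2 ATAC-seq libraries at each time point. The rat samples were neonatal ventricular cardiomyocytes from Sprague Dawley pups at postnatal day 1, kept in culture, with 3 libraries given DMSO, the solvent control, and 3 given 100 nM trichostatin A (TSA), an inhibitor of histone deacetylases. All cells were released from the left ventricle with trypsin and collagenase and were pre-plated on uncoated dishes to deplete cells other than cardiomyocytes, so that both species share that step. The study asked how chromatin and transcription change around birth, and the collagen genes bear on the matrix side of that change.

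Collagen chains are made in the endoplasmic reticulum, hydroxylated and assembled in threes, secreted as procollagen, trimmed outside the cell and cross-linked. Types I, III, V and XI build fibrils, in which type I gives stiffness and type III is common in distensible tissue. Type IV chains form the network of the basement membrane that surrounds each cardiomyocyte and lies under endothelium. In the heart, fibroblasts are the main source of fibrillar collagen, while type IV chains are also made by endothelial cells and cardiomyocytes.

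Expression was given as FPKM, fragments per kilobase of transcript scaled to the size of the library, summed over the transcripts of a gene, so that levels can be compared between genes. The deposited transcript coverage corresponds to an estimated 29300000 to 37500000 reads per library in mouse and 28200000 to 38500000 in rat. Differences were tested with limma on log2(FPKM + 1) over all genes that reached an FPKM of 1 in 2 or more mouse libraries or 3 or more rat libraries. A gene was called at a Benjamini-Hochberg adjusted p below 0.05 and a log2 fold change (log2FC) beyond 1 in either direction. Fold changes are on the log2(FPKM + 1) scale, which understates those of genes near 0. The study describes its replicates as biological. Nothing in the RNA-seq labels says that the libraries came from separate animals, so the p-values measure the spread between libraries.

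The labelled cell type was checked against marker RNA in every library. The study itself reported high cardiomyocyte purity, P7 included, from staining for the cardiac troponin T protein. It also reported that the promoters of Pecam1 and Dcn were not accessible in these cells. The summed FPKM of 16 cardiomyocyte markers was 24541 and 30421 at E18.5, 11199 and 17749 at P1, then 7806 and 6635 at P3 and 1973 and 833 at P7. At P7, 14 of the 16 were called lower than at E18.5, among them Myh7 (log2FC -7.98), Myl3 (-5.64), Myl2 (-5.57) and Tnnc1 (-4.69), while Hand2 and Tbx20 were not called. The sum of 12 fibroblast markers went the other way, from 380 and 387 at E18.5 to 1272 and 1289 at P1. It then reached 1614 and 1777 at P3 and 2250 and 2573 at P7. Single markers did not all follow this sum. Against E18.5, 8 of the 12 were called higher and 2 lower at P1. The P3 calls were 8 higher and 1 lower. By P7, 10 of 12 were called higher and 0 lower, with Pdgfra (4.32), Fn1 (3.26), Fbln2 (3.21) and Ddr2 (3.18) ahead. Smooth muscle and pericyte markers summed to 431 and 560 at E18.5 and to 1671 and 1879 at P7, where 5 of 10 were called higher and 3 lower. Among them were Tagln (4.55) and Pdgfrb (3.90), which were higher, and Abcc9 (-2.37), which was lower. Endothelial markers summed to 603 and 338 at E18.5 and 595 and 502 at P7, with 2 of 12 called higher and 2 lower. Macrophage markers summed to 62.1 and 56.7 at E18.5 and 141 and 118 at P7, with 1 of 10 called each way, and epicardial markers to 146 and 150 and then 325 and 335, with Aldh1a2 (4.51) and Upk1b (2.01) called higher of 8. No marker of these lists stayed below an FPKM of 1 in every mouse library. In bulk samples, fewer cells of a type and less RNA per cell cannot be told apart, and the part of these shifts in the collagen differences was not tested.

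**Figure D1:**
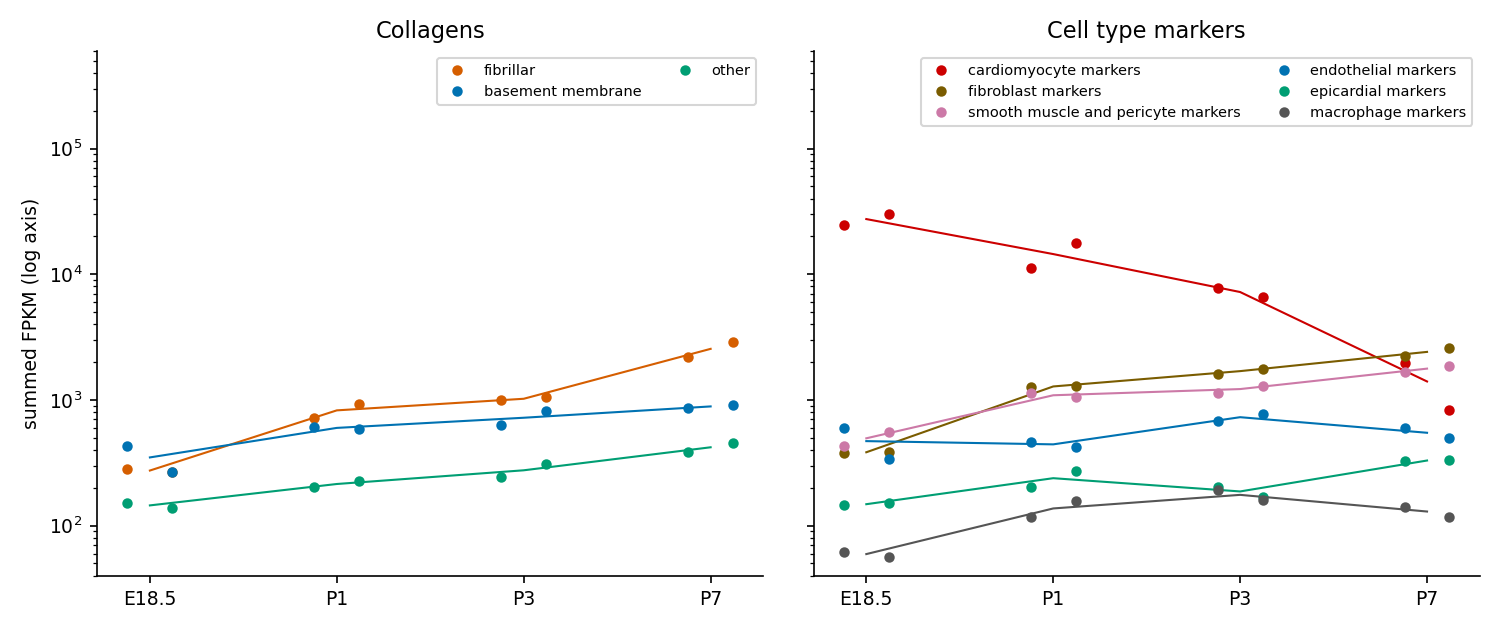
Summed FPKM (log axis) of the collagen classes (left) and of cell type markers (right) at E18.5, P1, P3 and P7, with 1 point per library and lines through the means of 2. Fibrillar collagens climb from 284 and 265 to 2201 and 2899, and fibroblast markers climb while cardiomyocyte markers fall from 24541 and 30421 to 1973 and 833.

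Collagen transcripts grew as a share of the transcriptome over the 4 time points. The 44 genes together took 0.163% and 0.121% of TPM, a length-scaled unit with the same total in every library, at E18.5, 0.331% and 0.384% at P1, then 0.404% and 0.486% at P3 and 0.755% and 0.960% at P7. Fibrillar chains summed to an FPKM of 284 and 265 at E18.5, 718 and 935 at P1, then 995 and 1048 at P3 and 2201 and 2899 at P7. Basement membrane chains summed to 432 and 266, 614 and 584, 629 and 815, and 861 and 915 at the same time points. Thus fibrillar chains were at 0.657 and 0.996 times the basement membrane chains at E18.5 and at 2.56 and 3.17 times at P7. Set against the fibroblast markers of the same library, the fibrillar sum was 0.748 and 0.684 at E18.5, 0.564 and 0.725 at P1, then 0.617 and 0.590 at P3 and 0.978 and 1.13 at P7. This ratio was higher in both P7 libraries than in the other 6 libraries. Basement membrane chains went the other way against the same markers, from 1.14 and 0.686 at E18.5 to 0.383 and 0.356 at P7, and all collagens together were at 2.29 and 1.73 at E18.5 and 1.53 and 1.66 at P7.

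Of the 44 mouse collagens, 27 passed the filter, and the other 17 stayed at or below an FPKM of 1.68 in every library. At P1, 10 were called higher than at E18.5 and 3 lower, where 10.1% of the 13979 genes tested were called higher and 6.06% lower. At P3, 12 were called higher and 3 lower, against 13% and 8.88% of all genes. At P7, 18 were called higher and 3 lower, against 15.4% and 12.3%. The filter fixed the direction of some calls: the 3 called lower were below an FPKM of 1 in every postnatal library, and Col8a1, Col11a1 and Col28a1, called higher, were below 1 in both E18.5 libraries. Of the 19 collagens with a mean FPKM of at least 5, 10, 12 and 16 were called higher at the 3 times. The lower calls among them were 0. Of all 8944 genes at that mean, 1099, 1398 and 1608 were called higher and 412, 694 and 1011 lower. The mean is over all mouse libraries, and Col8a1 and Col11a1 reached it through postnatal libraries alone. It therefore does not remove the limit of the filter. The median log2FC of the 27 was 0.65, 0.69 and 1.48 at P1, P3 and P7, and that of all tested genes was 0.15, 0.16 and 0.14. With median-of-ratios size factors, which bring the median of all genes to -0.01, -0.02 and -0.01, the calls were 5 higher and 4 lower (P1), 10 and 3 (P3), and 16 and 3 (P7). Higher calls lost with them were Col5a1, Col6a1, Col12a1, Col16a1 and Col23a1 at P1, Col4a1 and Col4a2 at P3, and Col6a2 and Col15a1 at P7. Between P1 and P3 no collagen was called by limma, 9 had an unadjusted p below 0.05, and 0.0143% of all genes were called higher and 0% lower, while limma-voom also called 0. From P1 to P7, 12 collagens were called higher and 0 lower, against 3.45% and 5.46% of all genes. From P3 to P7, 7 were called higher and 1 lower, against 1.35% and 2.2%. These comparisons share libraries and are not independent of each other.

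**Figure D2:**
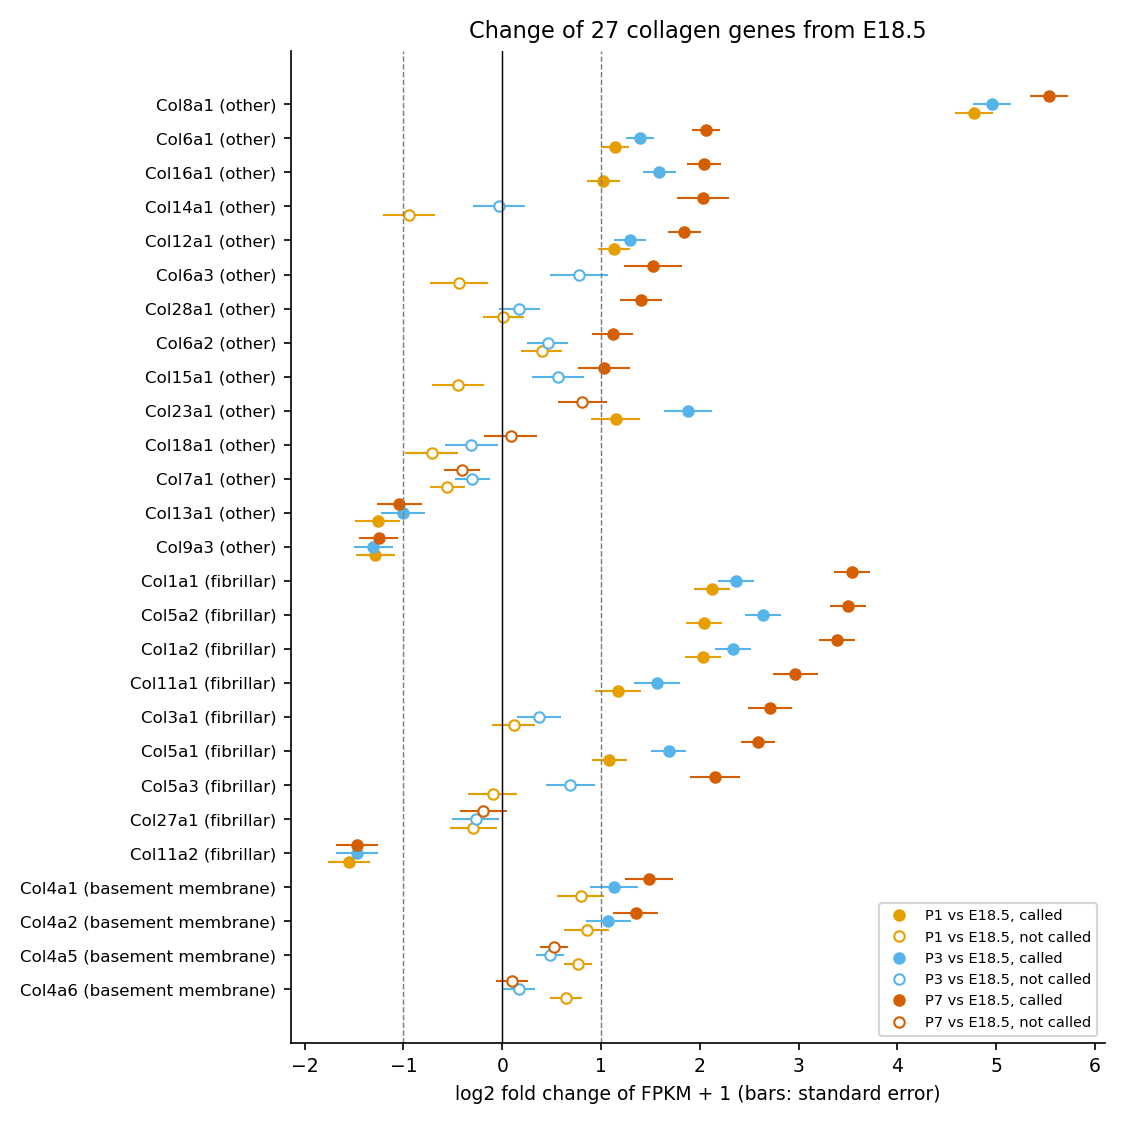
Log2 fold change of FPKM + 1 from E18.5 to P1, P3 and P7 for the 27 collagen genes tested, with standard errors from the fit, where filled points are called and open points are not, and dashed lines mark a log2FC of -1 and 1. Col8a1 lies farthest to the right at 4.78, 4.96 and 5.53, and Col3a1 is called at P7 only, at 2.72.

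Of the 11 fibrillar chains 9 were tested, and 5 were called higher and 1 lower at P1 and likewise at P3, and 7 higher and 1 lower at P7. Their median log2FC was 1.09, 1.57 and 2.72. Col1a1, the alpha 1 chain of type I collagen, had an FPKM of 70.6 and 67.1 at E18.5, 258 and 357 at P1, then 354 and 365 at P3 and 720 and 917 at P7. Col1a2, its partner chain, had 71.6 and 67.5, 243 and 340, 350 and 359, and 651 and 834. In both genes every later library lay above both E18.5 libraries, and both P7 libraries lay above all others. Their log2FC at P7 was 3.54 ± 0.18 (SE, adjusted p = 8.35e-06, limma, n = 2 against 2) and 3.39 ± 0.18. The type I protein holds a pair of alpha 1 chains for each alpha 2 chain, whereas the ratio of the transcripts stayed between 0.985 and 1.10 in all 8 libraries.

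Col3a1, the single chain of type III collagen, followed a later course. Its FPKM was 96.9 and 92.8 at E18.5, 84.0 and 126 at P1, then 118 and 128 at P3 and 523 and 755 at P7. Here the E18.5 and P1 libraries overlapped and the gene was not called at P1 (log2FC 0.11 ± 0.22, adjusted p = 0.705) or P3 (0.37, 0.202). At P7 both libraries lay above the rest, with a log2FC of 2.72 ± 0.22 against E18.5 and 2.35 ± 0.22 against P3. Col3a1 stood at 1.37 and 1.38 times Col1a1 at E18.5, at 0.326 and 0.352 times at P1, at 0.333 and 0.351 times at P3, and at 0.727 and 0.823 times at P7.

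The type V chains, which seed and limit the width of type I fibrils, were called at different times. Col5a2 had an FPKM of 21.3 and 17.0 at E18.5, 92.9 and 71.3 at P1, then 120 and 127 at P3 and 201 and 253 at P7 (log2FC at P7 3.50 ± 0.18). Col5a1 had 16.4 and 15.2, 34.3 and 34.9, 45.9 and 60.9, and 87.4 and 114 (2.59 ± 0.18). Each was called at all 3 postnatal time points, with no overlap between E18.5 and any later library. Col5a2 was 1.301 and 1.12 times Col5a1 at E18.5 and 2.04 to 2.71 times in the 6 postnatal libraries. Col5a3 was low until P7, with 1.09 and 0.70 at E18.5, 0.56 and 0.99 at P1, then 1.46 and 2.75 at P3 and 6.59 and 8.27 at P7, and it was called at P7 (2.16 ± 0.25) but not at P1 or P3.

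The minor fibrillar chains went different ways. Col11a1, a type XI chain that copolymerizes with type V in non-cartilage tissue, rose from 0.81 and 0.64 at E18.5 to 3.38 and 2.45 at P1, then 4.55 and 3.69 at P3 and 10.1 and 15.4 at P7 (log2FC 2.97 ± 0.23). Col11a2, the other type XI chain, fell from 2.82 and 2.14 at E18.5 to values between 0.055 and 0.457 in all postnatal libraries (log2FC at P7 -1.47 ± 0.21, adjusted p = 0.000655). Col27a1 had 2.02 and 1.56 at E18.5 and 0.915 to 1.79 afterwards and was not called at any time point. Col2a1, the cartilage chain, and Col24a1 stayed below the filter, at no more than 0.302 and 0.985.

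**Figure D3:**
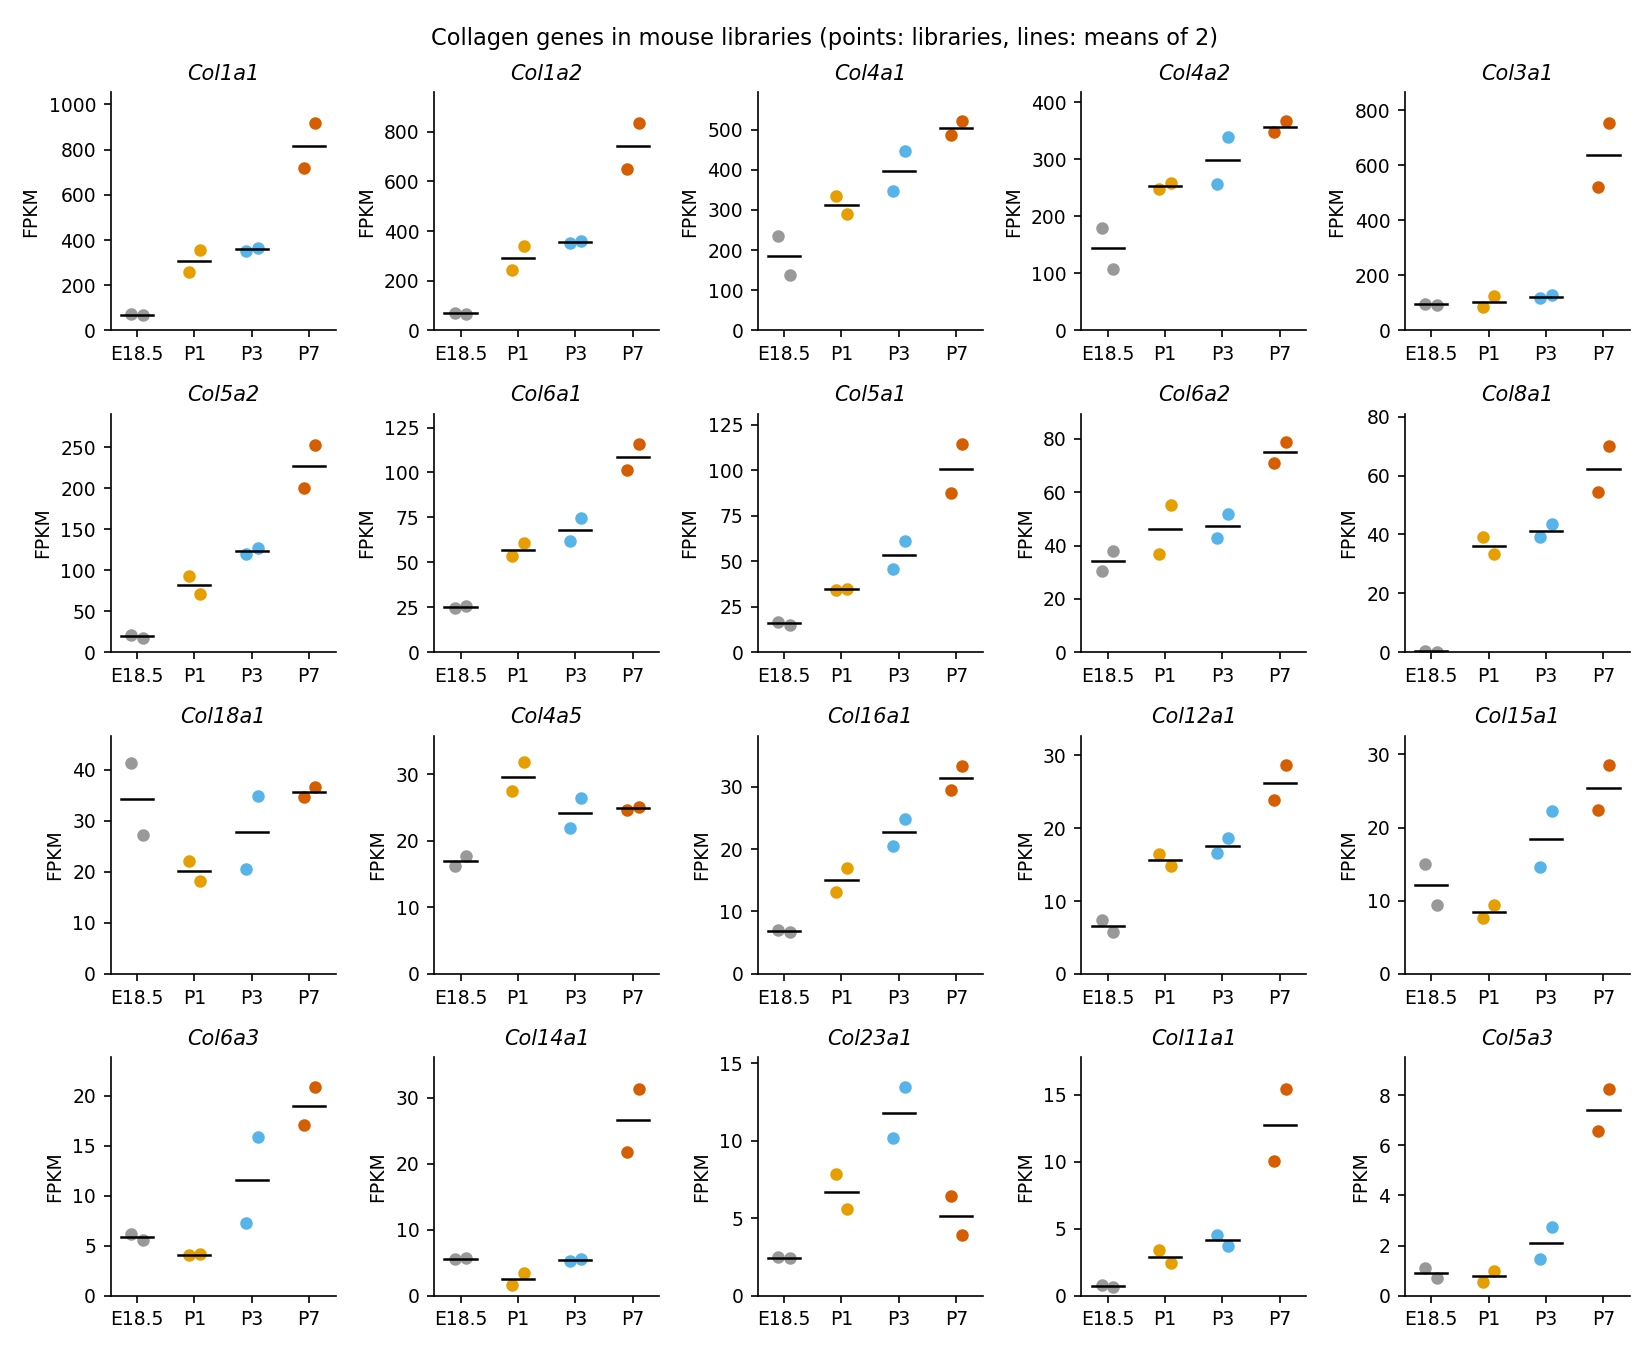
FPKM of 20 collagen genes in each of the 8 mouse RNA-seq libraries, with points for libraries and lines for the means of 2 at E18.5, P1, P3 and P7. Col1a1 and Col1a2 step up at P1 and again at P7, Col3a1 stays between 84.0 and 128 until P3 and reaches 523 and 755 at P7, and Col23a1 is highest at P3.

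The promoters of the 4 most abundant fibrillar genes differed in base composition, and each is shown because open chromatin was called at or near it. The stretches below lie just before the start of the most abundant transcript (GENCODE vM21), were read from the RefSeq copy of GRCm38.p6 and run 5′ to 3′ on the gene's strand. Capitals mark matches on either strand to the TBP element TATAAA, the NF-Y element CCAAT, the Sp1 element GGGCGG (GC box), the AP-1 element TGACTCA or the TEAD element GGAATG. Of 32851 RefSeq promoters, 12.4%, 33.8%, 32.7%, 4.46% and 12.6% hold these letters in the 250 bases before the start.
Col1a1, chr11:94935974-94936223, plus strand: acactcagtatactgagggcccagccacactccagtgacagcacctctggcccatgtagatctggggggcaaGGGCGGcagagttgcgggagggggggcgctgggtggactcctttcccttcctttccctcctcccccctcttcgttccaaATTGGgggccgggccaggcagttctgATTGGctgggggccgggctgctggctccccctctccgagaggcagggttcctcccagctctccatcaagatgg
Col1a2, chr6:4505370-4505492, plus strand: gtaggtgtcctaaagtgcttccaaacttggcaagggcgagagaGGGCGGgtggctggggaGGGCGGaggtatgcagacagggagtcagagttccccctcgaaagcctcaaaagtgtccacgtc
Col3a1, chr1:45311288-45311537, plus strand: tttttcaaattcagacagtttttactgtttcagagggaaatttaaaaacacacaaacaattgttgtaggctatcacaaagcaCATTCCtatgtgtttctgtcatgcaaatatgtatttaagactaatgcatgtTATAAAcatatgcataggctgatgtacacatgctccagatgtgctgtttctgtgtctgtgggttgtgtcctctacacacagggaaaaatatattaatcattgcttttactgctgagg
Col5a2, chr1:45503283-45503532, minus strand: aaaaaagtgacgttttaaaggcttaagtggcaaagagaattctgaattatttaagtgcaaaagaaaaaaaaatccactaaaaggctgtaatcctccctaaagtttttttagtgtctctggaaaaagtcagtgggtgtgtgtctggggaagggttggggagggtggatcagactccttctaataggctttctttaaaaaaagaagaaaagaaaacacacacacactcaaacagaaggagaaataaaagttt
The Col1a1 stretch was 64.8% G and C and held 2 CCAAT boxes, 99 to 95 and 73 to 69 bases before the start, and 1 GC box. The Col1a2 stretch, trimmed to 123 bases because an annotated exon of the gene lies before it, was 59.3% G and C with 2 GC boxes. It is shorter than the 250 bases behind the shares above, and over that length the RefSeq promoter of Col1a2 did hold a CCAAT box. The Col3a1 and Col5a2 stretches were poorer in G and C, at 35.2% and 36%. The Col3a1 stretch held TATAAA from 117 to 112 bases before the start and 1 match to the TEAD letters, and the Col5a2 stretch held none of the 5 motifs. A match describes the letters and is not evidence of binding.

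Col1a2, Col3a1 and Col5a2 had no ATAC-seq peak within 2.5 kb of a transcript start in either E18.5 library and had one in all 4 P3 and P7 libraries. The E18.5 lists were the shortest, and with every list limited to its 13149 highest scores this pattern was mostly lost. Col3a1 then had a peak in no library, Col1a2 in P7 replicate 2 only, and Col5a2 in the P3 libraries only. The values below are from the full lists. At Col1a2, peaks over the start had a fold enrichment of 5.38 and 6.03 at P3 and 4.26 and 5.03 at P7, and a narrower one of 5.59 lay just after the start in 1 of the 2 P1 libraries. At Col5a2 the values of peaks at the start or within 104 bases of it were 8.83 and 9.75 at P3, 4.94 and 5.05 at P7, and 6.06 in P1 replicate 1. Col3a1 had none at P1, and its peaks over the start had 4.17 and 5.53 at P3 and 4.31 and 3.36 at P7. Col1a1 had peaks in E18.5 replicate 1, P1 replicate 1 and all P3 and P7 libraries, with their nearest edges 2247 to 2407 bases before the start, or 277 to 575 bases before another annotated start inside the gene, and P3 replicate 1 alone had one over the start itself. At P3, when both genes had such peaks, the FPKM of Col3a1 was 118 and 128 and that of Col1a2 was 350 and 359.

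The basement membrane chains were abundant at E18.5. Of 6 chains 4 were tested, none was called at P1, and 2 were called higher at P3 and again at P7, with a median log2FC of 0.78, 0.78 and 0.94. Col4a1, which with Col4a2 forms the heterotrimer found in nearly all basement membranes, had an FPKM of 234 and 137 at E18.5, 336 and 289 at P1, then 347 and 446 at P3 and 486 and 521 at P7. Col4a2 had 180 and 109, 248 and 259, 257 and 340, and 348 and 367. At E18.5 they were the 2 most abundant collagens in both libraries. Their log2FC was 0.79 ± 0.24 and 0.85 ± 0.23 at P1, then 1.13 and 1.07 at P3 and 1.48 and 1.35 at P7. Here the spread between the E18.5 libraries was wide, and without E18.5 replicate 2 or P3 replicate 2 neither was called at P3 (log2FC 0.71 to 0.95), and Col4a2 missed the fold threshold at P7 without E18.5 replicate 2 (0.99), whereas without E18.5 replicate 1 both were already called at P1 (1.175 and 1.22). The ratio of Col4a1 to Col4a2 stayed between 1.12 and 1.42 in all 8 libraries. Set against the endothelial marker sum of the same library, the basement membrane sum was 0.717 and 0.787 at E18.5, 1.33 and 1.38 at P1, then 0.921 and 1.05 at P3 and 1.45 and 1.82 at P7.

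Col4a1 and Col4a2 are read in opposite directions from 1 shared promoter on chromosome 8, with annotated starts at 11312826 on the minus strand and 11312805 on the plus strand. A peak lay over these starts in 7 of 8 ATAC-seq libraries, with a fold enrichment of 5.85 and 6.31 at E18.5, 3.17 in P1 replicate 1, 2.89 and 3.98 at P3 and 2.72 and 5.79 at P7. It was missing from P1 replicate 2. Col4a5, an X-linked chain, had 16.2 and 17.8 at E18.5, 27.4 and 31.8 at P1, then 22.0 and 26.4 at P3 and 24.7 and 25.1 at P7, which put its highest values at P1 (log2FC 0.76 ± 0.14, adjusted p = 0.00411, below the fold threshold). Col4a6, at 1.52 to 3.46, was also highest at P1, and Col4a3 and Col4a4, the chains of the mature glomerular membrane, stayed at or below 0.613.

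Of the 27 other types 14 were tested, and 5 were called higher and 2 lower at P1 and likewise at P3, and 9 higher and 2 lower at P7. Col8a1, a short chain network-forming collagen of vessels and remodelling matrix, had the largest log2FC of the 27 tested. It had an FPKM of 0.56 and 0.18 at E18.5, 39.2 and 33.3 at P1, then 39.0 and 43.5 at P3 and 54.5 and 70.2 at P7. Both E18.5 libraries were under an FPKM of 1, and the lowest later library was at 33.3. The log2FC was 4.78 ± 0.19, 4.96 ± 0.19 and 5.53 ± 0.19 at P1, P3 and P7 (adjusted p = 1.28e-05, 7.3e-06 and 2.93e-06). Its partner Col8a2 stayed between 0.165 and 0.650.

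At Col8a1 a peak within 2.5 kb of a start was called in all 4 P3 and P7 libraries and in none at E18.5 or P1, with a fold enrichment of 6.70 and 8.10 at P3 and 5.44 and 4.04 at P7. Col8a1 RNA was already at 39.2 and 33.3 at P1, where no peak was called. The P1 lists held a peak at only 11 and 2 of 44 collagens, so its absence there does not show closed chromatin.

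The type VI chains form beaded microfilaments near cell surfaces. Col6a1 had an FPKM of 24.6 and 25.9 at E18.5, 53.4 and 60.5 at P1, then 61.6 and 74.8 at P3 and 101 and 116 at P7 and was called at every time point (log2FC at P7 2.06 ± 0.14). Col6a2 had 30.3 and 38.1, 36.8 and 55.4, 42.8 and 51.9, and 71.0 and 78.9 and was called at P7 (1.12 ± 0.21), but not without E18.5 replicate 1 (0.96). Col6a3 had 6.20 and 5.61, 4.06 and 4.15, 7.29 and 15.9, and 17.1 and 20.8 and was called at P7 as well (1.52 ± 0.30). The chains therefore kept no fixed proportion: Col6a1 was 0.812 and 0.679 times Col6a2 at E18.5 and 1.09 to 1.47 times in the postnatal libraries. Col6a4, Col6a5 and Col6a6 stayed at or below 0.903.

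Of the fibril-associated and related types tested, Col12a1 and Col16a1 rose early, Col14a1 and Col28a1 rose late, and Col9a3, described below, fell. Col12a1, which sits on type I fibrils, had 7.45 and 5.77 at E18.5, 16.4 and 14.8 at P1, then 16.6 and 18.6 at P3 and 23.9 and 28.6 at P7. Col16a1 had 7.05 and 6.64, 13.1 and 17.0, 20.5 and 24.9, and 29.4 and 33.4. Both were called at all 3 time points, but their P1 log2FC of 1.13 and 1.02 fell below 1 without E18.5 replicate 2 (0.97 and 0.99), and that of Col16a1 also without P1 replicate 2 (0.85). Col14a1, another fibril-associated chain, was lowest at P1 and highest at P7, with 5.54 and 5.72 at E18.5, 1.65 and 3.46 at P1, then 5.33 and 5.61 at P3 and 21.8 and 31.4 at P7. Both P1 libraries lay below both E18.5 libraries, but the difference at P1 was not called (-0.95 ± 0.26, adjusted p = 0.0215). It was called lower in 4 of 17 alternatives, without P1 replicate 2 (-1.32), with a pseudocount of 0.1 (-1.20), with size factors (-1.11) and with limma-voom (-1.58). The P7 rise was called (2.03 ± 0.26). Col28a1 was listed at 0 in both E18.5 libraries, reached 1.15 and 2.26 at P7 and was called there. It passed the filter through the P7 libraries alone, so that its calls at P7 against each earlier time point could only be higher.

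Col15a1 and Col18a1, the multiplexins of basement membrane zones, are described together. Col15a1 had 15.0 and 9.44 at E18.5, 7.61 and 9.36 at P1, then 14.6 and 22.2 at P3 and 22.4 and 28.6 at P7, with a call at P7 (1.03 ± 0.26) that was lost without E18.5 replicate 2 (0.72) or P7 replicate 2 (0.86). Col18a1, the source of endostatin, had 41.3 and 27.3, 22.2 and 18.2, 20.6 and 34.9, and 34.7 and 36.6 and was not called at any time point, although it was at P1 without E18.5 replicate 2 (-1.005). Col23a1, a transmembrane collagen, was highest at P3, with 2.49 and 2.41 at E18.5, 7.84 and 5.59 at P1, then 10.2 and 13.4 at P3 and 6.42 and 3.93 at P7. It was called higher at P1 (1.15, lost without P1 replicate 1 at 0.94) and P3 (1.88) and was the collagen called lower at P7 than at P3 (-1.07 ± 0.25, adjusted p = 0.0482), a call that held in 6 of 16 alternatives. The remaining lower calls were Col9a3, which fell from 2.99 and 2.05 to between 0.297 and 0.585, and Col13a1, which fell from 2.63 and 1.31 to between 0.105 and 0.452 and was not called at any of the 3 time points without E18.5 replicate 1 (-0.94 to -0.68). Col9a3 is a fibril-associated chain best known from cartilage and Col13a1 a transmembrane collagen. Col9a3, Col13a1 and Col11a2 passed the filter through the E18.5 libraries alone, so that they could only be called lower.

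From P3 to P7, 5 of the 8 collagens called were fibrillar chains. Col3a1 (log2FC 2.35), Col14a1 (2.07), Col5a3 (1.47), Col11a1 (1.40), Col28a1 (1.23), Col1a1 (1.175) and Col1a2 (1.05) were called higher. Without P3 replicate 1, P3 replicate 2 or P7 replicate 2 only Col3a1 was called of the 8, and the calls over all genes fell as well, from 189 higher and 307 lower to 18 and 5, 22 and 4, and 44 and 62. The log2FC of Col1a1 in these fits was 1.15, 1.197 and 1.001. Without P7 replicate 1 the count was 10, and with no filter on low FPKM it was 0, with 13 genes called higher and 2 lower in all. From P1 to P7, Col5a1, Col5a2, Col6a3, Col15a1 and Col16a1 were called as well.

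Among genes that build and export collagen, many were called higher at P1 and most at P3 and P7. The shares of all tested genes called higher at these times were 10.1%, 13% and 15.4%. Of 20 genes for hydroxylation, folding and export of procollagen, 9 were called higher at P1, and 13 and 15 at the later times, with none lower. Fkbp10, a procollagen chaperone, went from 24.5 and 24.4 at E18.5 to 151 and 179 at P7 (log2FC 2.70), and P4ha1 (2.45), P3h3 (2.31) and P4ha2, which hydroxylate proline, followed. Of 13 genes for procollagen cleavage and cross-linking, 8, 9 and 10 were called higher at the 3 postnatal times, with none lower. Loxl1 rose from 9.10 and 9.26 to 229 and 259 (4.59) and Lox from 5.29 and 5.30 to 126 and 163 (4.52), both cross-linking oxidases, followed by Adamts2 (3.66), the procollagen N-proteinase, and Loxl3 (3.46). The list medians at P7 were 1.78 and 2.52, beside 0.14 for all tested genes.

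Genes of collagen breakdown and its inhibitors were called higher in 8, 8 and 9 of 12 cases and lower in none. Of all tested genes 10.1%, 13% and 15.4% were called higher at P1, P3 and P7. Mmp3, stromelysin, went from 0.15 and 0.06 at E18.5 to 403 and 594 at P7 (log2FC 8.79). Timp1, an inhibitor of such proteases, went from 24.3 and 18.1 to 417 and 492 (4.37). Mmp3 passed the filter through postnatal libraries alone, so that it could only be called higher against E18.5. Mmp14 (2.67) and Timp2 (2.39) rose too, so that proteases and inhibitors were both among the genes called. Of 8 collagen-binding receptors, 2 were called higher and 1 lower at P1 and at P3, and 3 higher at P7, namely Mrc2 (3.67), which takes up collagen, Ddr2 (3.18), a collagen-binding kinase, and Itga11 (1.24), an integrin chain. Of 12 basement membrane partners, 1, 2 and 2 were called higher and none lower, with Sparc (1.85) and Nid1 (1.76) called at P7 and the list median at 0.37.

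In the ATAC-seq peak lists, the share of collagen promoters with a peak varied widely between libraries. A peak within 2.5 kb of a transcript start was present at 8 and 6 of 44 genes at E18.5 (18.2% and 13.6%), 11 and 2 at P1 (25% and 4.55%), 39 and 36 at P3 (88.6% and 81.8%) and 32 and 28 at P7 (72.7% and 63.6%). Among 21951 protein-coding genes the shares were 44.7% and 41.5%, 46.8% and 29.3%, 70.3% and 63.3%, and 61.7% and 60.0%. The lists differed in length, holding 13149 and 14910 peaks (E18.5), 29281 and 19753 (P1), 95257 and 52040 (P3), and 49113 and 35898 (P7). With every list limited to its 13149 highest scores, 8 and 6 (E18.5), 1 and 1 (P1), 7 and 4 (P3), and 6 and 4 (P7) collagens had a peak, beside 23.6% to 44.7% of protein-coding genes per library.

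A peak was counted as gained when both later libraries and neither E18.5 library held one. At P3, 27 of 44 collagens gained a peak, against 15.1% of all protein-coding genes, and none lost one, against 0.0501%. At P7, 14 gained one, against 10.2%, and none lost one, against 0.0319%. At P1 none gained one, against 1.16%, and Col5a1 and Col25a1 lost one, against 2.6%. With the lists of equal length, Col5a2 and Col8a1, 2 of 44, gained a peak at P3, against 1.16% of all genes, and 0 did at P7, against 1.11%. In the same lists 5 and 3 collagens lost one, as did 1340 and 509 of the 21951 genes. The counts at P3 and P7 therefore hold for the lists as deposited and not for lists of equal length. Without P7 replicate 2 the count at P7 was 23, against 13.9% of all genes, and without P1 replicate 2 that at P1 was 4, against 5.35%. Leaving out a library removes a condition for a gain, so such counts could only stay or rise. Among the 18 collagens called higher at P7, 8 had gained a peak there (Col1a2, Col3a1, Col5a2, Col5a3, Col8a1, Col11a1, Col15a1 and Col16a1), as had 2 of the 3 called lower, 1 of 6 not called and 3 of 17 below the filter. At P3 the gains fell on 6 of 12 called higher, all 3 called lower, 9 of 12 not called and 9 of 17 below the filter. Of the 44 genes, 5 had no promoter peak in any library (Col6a4, Col9a1, Col10a1, Col17a1 and Col28a1).

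**Figure D4:**
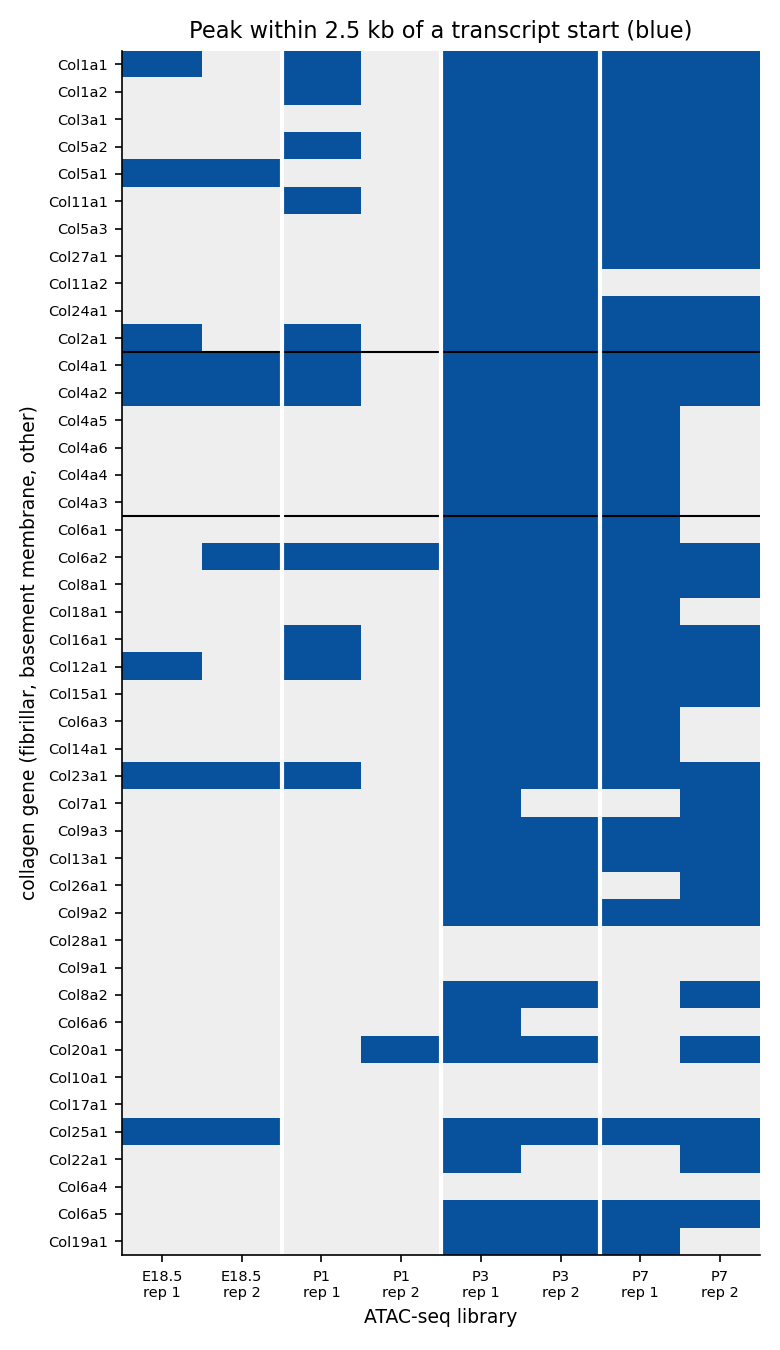
Presence (blue) or absence (grey) of an ATAC-seq peak within 2.5 kb of a transcript start for each of the 44 mouse collagen genes (rows, by class and then by mean FPKM) in each of 8 libraries (columns). Blue fills 39 and 36 rows at P3 and 8 and 6 at E18.5, and Col4a1 and Col4a2 are blue in 7 libraries.

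The rat cultures were used to ask what TSA does to gene expression in neonatal cardiomyocytes. Here 31 of 42 collagens passed the filter, and the other 11 stayed at or below an FPKM of 1.52. Collagens made up 1.73%, 1.86% and 1.99% of TPM with DMSO and 1.59%, 1.59% and 1.06% with TSA. The cultures held both cardiomyocyte and fibroblast transcripts, with cardiomyocyte markers summing to 12160, 12448 and 12314 with DMSO and 11859, 10728 and 15947 with TSA, and fibroblast markers to 2024, 2413 and 2498 and to 2035, 1961 and 1373. None of 15 cardiomyocyte markers was called, and of 12 fibroblast markers 1 was, Thy1 (log2FC 2.24). Smooth muscle and pericyte markers summed to 994, 910 and 2411 with DMSO and 680, 678 and 1643 with TSA, which set both libraries numbered 3 apart. Macrophage markers summed to 1028, 1045 and 497 and to 549, 467 and 411, with none called of 9. Endothelial markers summed to between 70.7 and 93.3, with Vwf below an FPKM of 1 throughout, and epicardial markers to between 25.9 and 51.9. In these 3 lists Rgs5 (1.80) was called of 10 smooth muscle and pericyte markers and Upk1b (1.27) of 7 epicardial markers. Cldn5 (1.05) was called of 11 endothelial markers, with 0.42, 0.44 and 0.16 with DMSO and 1.69, 1.89 and 1.72 with TSA. Cldn5 passed the filter through the TSA libraries alone and could only be called higher. The part of these values in the collagen differences was not tested.

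With TSA 3 collagens were called higher and none lower, against 1.81% and 0.316% of the 13625 genes tested, and the median log2FC of the 31 was 0.10, with 0.03 for all genes. With the replicate number as a block the same 3 collagens were called. Collagens with an unadjusted p below 0.05 (limma) went from 6 to 12 with the block. The calls over all genes went from 247 higher and 43 lower to 259 and 80. Of the 3, Col9a2 and Col20a1 passed the filter through the TSA libraries alone and could only be called higher. Col4a6, a basement membrane chain, had an FPKM of 4.18, 4.84 and 5.01 with DMSO and 13.4, 14.5 and 13.3 with TSA (log2FC 1.38 ± 0.11, adjusted p = 0.00478). Col9a2, a fibril-associated chain best known from cartilage, had 0.690, 0.600 and 0.916 with DMSO and 4.83, 4.66 and 3.72 with TSA (1.64 ± 0.16, adjusted p = 0.00677). Col20a1, a little studied fibril-associated chain, had 0.606, 0.643 and 0.433 with DMSO and 3.17, 3.49 and 1.90 with TSA (1.28 ± 0.20, adjusted p = 0.0249). In each of these genes all TSA libraries lay above all DMSO libraries. The call of Col20a1 was lost without DMSO replicate 1 or 2 or TSA replicate 1 or 2 (adjusted p = 0.0814 to 0.12), and that of Col9a2 without TSA replicate 2 (0.0588). Col4a5, the chain gene next to Col4a6 and read in the opposite direction, was not called and had 56.5, 52.7 and 66.1 with DMSO and 50.7, 55.1 and 52.7 with TSA, so that Col4a5 was 10.9 to 13.5 times Col4a6 with DMSO and 3.78 to 3.96 times with TSA.

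The abundant rat collagens were not called. Col1a1 had 2794, 3109 and 3756 with DMSO and 2728, 2723 and 1846 with TSA (log2FC -0.42 ± 0.20, adjusted p = 0.324). Col3a1 had 2447, 2646 and 2178 with DMSO and 2118, 1930 and 1088 with TSA (-0.55 ± 0.26, adjusted p = 0.305). In both genes every TSA library lay below every DMSO library, by 0.03, 0.19 and 1.02 on the log2 scale within the same-numbered pairs of Col1a1, so that the third pair carried most of the difference. Col4a1 had 589, 602 and 880 with DMSO and 574, 603 and 634 with TSA (-0.17 ± 0.17). Col5a3 had 19.3, 22.0 and 38.5 with DMSO and 50.6, 60.3 and 40.9 with TSA, a log2FC of 0.95 ± 0.27 that was not called (adjusted p = 0.111), but was without DMSO replicate 3 (1.24). Col7a1, the anchoring fibril chain, had 0.813, 1.11 and 1.07 with DMSO and 3.06, 3.18 and 2.20 with TSA, and its log2FC of 0.92 ± 0.17 fell short of the fold threshold (adjusted p = 0.036), while without TSA replicate 3 it was called (1.04). With both libraries numbered 3 left out, a choice made after the data were seen, 5 collagens were called, the 3 above with Col5a3 (1.38) and Col7a1 (1.07).

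**Figure D5:**
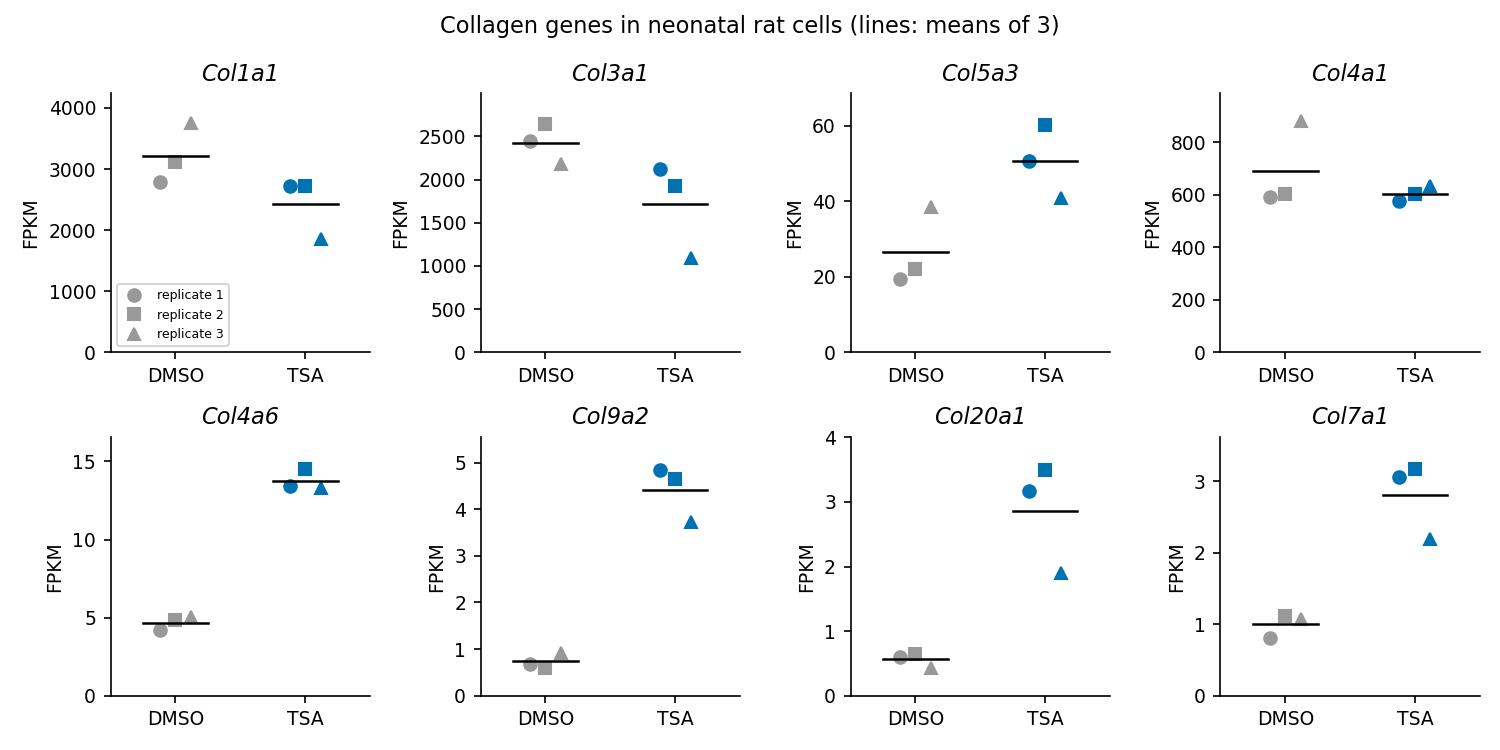
FPKM of 8 collagen genes in neonatal rat cardiomyocyte cultures given DMSO or TSA, with a symbol for each replicate number and lines for the means of 3. The TSA libraries of Col4a6 lie between 13.3 and 14.5 and the DMSO libraries between 4.18 and 5.01, and for Col1a1 the lowest point is TSA replicate 3 at 1846.

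The collagen-related lists held at most 1 call each with TSA, where 1.81% of all tested genes were called higher and 0.316% lower. Of 18 maturation genes none was called, and of 12 cleavage and cross-linking genes 1 was, Loxl4 (log2FC 1.39), from 1.49, 1.24 and 2.21 to 6.02, 5.94 and 5.69. Of 12 genes of breakdown and its inhibitors 1 was called lower, Ctsk (-1.43), the collagen-degrading cathepsin K, from 34.7, 37.9 and 34.2 to 13.7, 14.3 and 10.1. Of 8 collagen-binding receptors none was called, and of 11 basement membrane partners 1 was, Nid2 (1.06), from 25.1, 19.5 and 18.1 to 40.9, 43.9 and 48.5.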

How the data were processed

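Per the study's methods and the file headers, the authors aligned 150-base read pairs with HISAT2 2.1.0 and ran StringTie 1.3.5 with GENCODE vM21 (mm10, mouse) or 1.3.4d with Ensembl 103 (Rnor_6.0, rat). The deposited transcript lines give coverage, FPKM and TPM. Read counts were not used, so limma 3.58.1 (R 4.3.3) on log2(FPKM + 1), lmFit and eBayes with a trend, two-sided, replaced the edgeR test of the study. The deposited peak lists hold, per the authors' MACS2 runs on each sample, a score, the fold enrichment as a ratio to background, and −log10 p and −log10 q. Fold enrichment depends on depth and was not compared between libraries. The members and gene lists were chosen with earlier results of these data known.

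Genes named with values are the 12 collagens of highest mean FPKM, those called against E18.5 with a mean FPKM of at least 5 at a time point, and those called with TSA, plus up to 4 genes of each other list with the largest change. Further collagens were named after their values were seen. Mouse replicate numbers did not pair the libraries (correlations of deviations -0.10 to 0.17). Rat numbers did in part (0.22, 0.19 and 0.35), though libraries numbered 1 and 2 also correlated across numbers (0.09 and 0.17). The rat p-values given are from the fit without the block, and the block changed no call of a rat collagen. The kit does not mark strand. HiChIP was not analysed here, and the sequence under 1 peak is not reported here. Alternatives were TPM, size factors, other pseudocounts and filters, limma-voom, the block, fewer time points, each library left out, and for peaks other windows, starts and list lengths. The fit was tested on simulated data.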

Additional observations from a re-analysis of the deposited data

How the results depend on the processing

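Counts of collagens called at P1, P3 and P7 against E18.5, higher and lower together, were 13, 15 and 21. These totals stayed within 1.5 times under every alternative for expression. With size factors, however, the higher calls at P1 went from 10 to 5 and the lower ones from 3 to 4. With the P7 libraries left out of the fit (chosen after the data were seen) the totals were 13 and 15 at P1 and P3. With the replicate block they were 13, 15 and 21, and 3 for TSA, and the only call it changed among the collagens was Col23a1 from P3 to P7. From P3 to P7 the count of 8 fell to 0 with no filter and ranged from 1 to 10 without single libraries. For TSA the count of 3 was 1 with a mean FPKM of at least 5, 5 without both libraries numbered 3, and 1 to 4 without single libraries. From P1 to P7 it was 10 to 14. Gained promoter peaks were 2 (P3) and 0 (P7) with equal lists. With the upper 0.5 of each list they were at 11 and 3 of 44 collagens, beside 3846 and 2649 of 21951 genes. The share of collagens with a gain was then above that of all genes at P3 and below it at P7. Without single libraries the counts of collagens were 0 to 4 (P1), 27 to 30 (P3) and 15 to 23 (P7). Leaving out a library removes a condition for a gain, so these counts could not fall below the 0, 27 and 14 of all libraries. They therefore do not test how stable the gains are. Why the lists differed in length was not tested. Fold changes near 0 that were not called changed sign. Col3a1 at P1 was -0.087 with size factors and -0.17 to 0.40 without single libraries. Col18a1 was -0.68 to 0.055 at P3 without single libraries, and at P7 -0.095 with size factors, -0.019 with limma-voom and -0.21 to 0.38 without single libraries. Col14a1 at P3 was 0.19 with TPM, and Col5a3 at P1 was 0.012 with TPM and -0.27 to 0.077 without single libraries (0.054 without E18.5 replicate 1). Of the other fold changes under alternatives, 743 kept their side of the threshold, 26 lost a call and 18 gained one. With 2 libraries per group, small differences could not be shown.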
